A study of Mus musculus with 40 samples.

Results

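Transcripts of 9 genes of bone morphogenetic protein (BMP) signaling were followed in mouse cardiac fibroblasts with and without deletion of TAK1 (TGFβ-activated kinase 1, the product of *Map3k7*). The genes were the ligands *Bmp2*, *Bmp4* and *Bmp6*, the antagonists *Grem1* and *Bambi*, and the BMP target genes *Id1*, *Id2*, *Id3* and *Id4*. They were chosen by name, and each was found by its Ensembl identifier in the count table, so that all 9 were among the 25210 genes tested, out of 55414 gene identifiers. The cells came from hearts of adult male TAK1fl/fl mice (sex per the study) on the C57BL/6J background, so that the floxed allele was present in every group. They were used at passage 1 after growth in serum and bFGF, and were transduced with an adenovirus that carried either Cre recombinase (iCre) or LacZ behind the CMV promoter, which is active in any transduced cell and not in fibroblasts alone. After a rest without virus, the cells were starved of serum and spent 24 h without ligand (CTRL) or with a single ligand, which was 20 ng/ml of bFGF, 15 ng/ml of IL-1β, or 10 ng/ml of either TGFβ or TNFα. These 10 groups of virus by ligand had 4 replicates each, which gave 40 libraries of poly-A RNA.

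BMPs are secreted ligands of the TGFβ superfamily. They assemble pairs of transmembrane serine/threonine kinase receptors, which phosphorylate SMAD1, SMAD5 and SMAD9, and these enter the nucleus with SMAD4 and activate the *Id* genes as their classical early targets. Id proteins have a helix-loop-helix domain but no DNA-binding domain, and they hold E proteins and other helix-loop-helix factors away from DNA. Gremlin 1, encoded by *Grem1*, binds BMP2 and BMP4 outside the cell, and BAMBI is a membrane protein that resembles a type I receptor but lacks the kinase domain. TAK1 is activated downstream of TGFβ, BMP, IL-1β and TNFα receptors, and passes signals on to NF-κB and to the stress-activated kinases.

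Promoter sequence from RefSeq (GRCm38.p6) was at hand for 6 of the 9 genes, *Bmp4*, *Bmp6*, *Grem1*, *Id2*, *Id3* and *Id4*. The 250 bases before the start site are shown, from 5′ to 3′ on the strand of the gene, for *Id2*, *Id3*, *Id4* and *Bmp6*, whose levels were lower in iCre fibroblasts in at least 19 of 20 pairs of libraries, and for *Grem1*, whose level was higher in 19 of 20. The stretches lie at chr12:25096093-25096342 (minus strand) for *Id2*, chr4:136143572-136143821 (plus strand) for *Id3*, chr13:48260866-48261115 (plus strand) for *Id4*, chr13:38345466-38345715 (plus strand) for *Bmp6* and chr2:113758649-113758898 (minus strand) for *Grem1*. The start sites are those of RefSeq. By the gene spans given below, which come from the GENCODE annotation, the stretches of *Id2*, *Id3* and *Bmp6* lie inside the gene. Those of *Id4* and *Grem1* lie before it. Capitals mark matches on either strand to GGCGCC, a word that BMP SMADs are known to bind, and to GCGNGGGCG, the motif of EGR factors.
Id2: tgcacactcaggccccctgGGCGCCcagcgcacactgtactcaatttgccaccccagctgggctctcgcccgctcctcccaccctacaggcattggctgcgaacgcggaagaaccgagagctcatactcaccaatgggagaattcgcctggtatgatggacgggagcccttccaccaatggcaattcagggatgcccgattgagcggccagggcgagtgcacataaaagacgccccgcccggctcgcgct
Id3: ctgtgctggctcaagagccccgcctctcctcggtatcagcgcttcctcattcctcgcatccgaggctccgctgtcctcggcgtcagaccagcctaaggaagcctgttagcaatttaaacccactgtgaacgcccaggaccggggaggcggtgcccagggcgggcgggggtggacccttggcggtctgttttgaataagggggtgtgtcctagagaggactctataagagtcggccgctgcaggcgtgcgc
Id4: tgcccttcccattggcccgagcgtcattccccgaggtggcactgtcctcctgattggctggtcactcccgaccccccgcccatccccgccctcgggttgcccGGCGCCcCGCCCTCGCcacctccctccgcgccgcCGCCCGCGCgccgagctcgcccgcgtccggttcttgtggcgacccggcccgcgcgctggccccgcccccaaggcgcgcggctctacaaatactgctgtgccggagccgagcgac
Bmp6: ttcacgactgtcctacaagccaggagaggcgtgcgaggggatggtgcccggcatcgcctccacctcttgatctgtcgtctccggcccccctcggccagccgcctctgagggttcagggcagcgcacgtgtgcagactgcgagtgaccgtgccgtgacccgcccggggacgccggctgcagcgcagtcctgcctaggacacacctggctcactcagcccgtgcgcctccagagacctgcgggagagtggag
Grem1: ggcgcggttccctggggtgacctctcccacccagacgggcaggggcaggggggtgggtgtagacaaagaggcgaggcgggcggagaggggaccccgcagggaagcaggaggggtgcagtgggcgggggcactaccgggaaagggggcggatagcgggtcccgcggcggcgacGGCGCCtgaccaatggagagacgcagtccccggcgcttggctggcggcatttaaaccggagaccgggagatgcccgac
*Id2* held GGCGCC with its first base at -231 from the start site, *Grem1* at -78 and *Id4* at -148. *Id4* also held the EGR motif on the opposite strand, starting at -141 and at -114, and none of the matches overlapped. No match to either motif was found in the *Id3*, *Bmp4* and *Bmp6* windows, and no window of the 6 genes held TGANTCA, the AP-1 motif. Among 32851 RefSeq promoters, which reach from 250 bases before to 50 after the start, 11.9% held GGCGCC, 5.55% the EGR motif and 7.81% the AP-1 motif, so that these matches are a description of the letters and not of binding.

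*Map3k7* itself was at 144 to 251 CPM (counts scaled to library size) in the LacZ libraries and at 122 to 160 CPM in the iCre libraries, with no overlap between iCre and LacZ under any of the 5 treatments. It was called with TGFβ, IL-1β and TNFα, and in CTRL and with bFGF only with the replicate number as a block (adjusted p = 0.00393 and 0.000409, against 0.137 and 0.351). In CTRL it was also called by another test, DESeq2 (adjusted p = 0.0074). Its counts take in all exons and so include transcripts of the recombined allele. Total counts lay between 25360947 and 66160732 per library, with a median of 36183962. Of 10 fibroblast markers, the summed level was 15400 to 69700 CPM in every library, against at most 26.8 CPM for 5 endothelial, 150 CPM for 5 leukocyte, 110 CPM for 4 cardiomyocyte and 10.9 CPM for 4 mesothelial markers. *Cd3e* was at 0 in every library, and *Myh6*, *Actc1* and *Nppa* were at 0 or below 0.1 CPM, so that *Tnnt2* made up the cardiomyocyte sum. The 4 markers of pericytes and smooth muscle, led by *Rgs5*, added up to 73 to 1170 CPM in LacZ and to 240 to 1920 CPM in iCre libraries. The group means of these sums were, in LacZ, 349, 362, 930, 593 and 209 CPM and, in iCre, 701, 753, 1320, 746 and 802 CPM for CTRL, bFGF, TGFβ, IL-1β and TNFα, higher in iCre each time. Those of the fibroblast markers were, in LacZ, 39900, 26300, 60400, 50600 and 30900 CPM and, in iCre, 27500, 20700, 55800, 27200 and 18200 CPM, lower in iCre each time. The leukocyte sums were, in LacZ, 87.5, 64.6, 46.5, 90.3 and 82.5 CPM and, in iCre, 48.4, 34.2, 33.0, 60.9 and 66.4 CPM, likewise lower in iCre each time. The endothelial sums were, in LacZ, 26.2, 13.7, 8.28, 8.71 and 12.1 CPM and, in iCre, 15.0, 11, 6.12, 11.1 and 13.4 CPM, so that each ligand came with a lower sum than CTRL. The cardiomyocyte sums were, in LacZ, 49.2, 12.6, 7.16, 1.02 and 3.56 CPM and, in iCre, 27.8, 6.24, 8.67, 8.63 and 6.96 CPM, again highest in CTRL. The part of these markers in the differences between iCre and LacZ, between ligands and CTRL and in the interactions was not tested.

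Replicate 2 stood apart in several of the genes described here. It had the highest *Bmp2* and *Grem1* in 10 of 10 groups, the lowest *Bmp6* in 10 of 10 and the lowest *Bmp4* in 9 of 10, while *Bmp4* was highest in replicate 1 in 10 of 10. The summed leukocyte, pericyte and cardiomyocyte markers were lowest in replicate 2 in all 10 groups as well, and their part in the spread of the BMP genes was not tested. Results are therefore given beside a fit that takes the replicate number as a block (the replicate block), and without 1 replicate number where that changes a call or a direction, and "only with the block" sets this fit against the one without it, both on all replicates. Where adjusted p-values without and with the block stand beside a single log2 fold change, the latter is that of the fit without it. The block can give another value. The library numbers of replicate 1 lie in a range apart from those of replicates 2 to 4, so that values without replicate 1 stay within the latter range, while replicate 1 alone has 1 library per group. In such bulk libraries, fewer expressing cells and less RNA per cell cannot be told apart.

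*Id3* was lower in iCre than in LacZ fibroblasts in CTRL and with TGFβ, IL-1β and TNFα, *Id2* was lower with these 3 ligands, and *Id1* was higher with IL-1β and TNFα. Pairs of groups were compared by edgeR's quasi-likelihood test, with p-values adjusted over the 25210 genes, and a gene was called at an adjusted p of at most 0.05. In CTRL, 1 of the 9 genes was called, *Id3*, where 0.0754% of all genes were. With bFGF none was called by edgeR, as for all genes (0.0%), although 5 of the 9 had an unadjusted p under 0.05 and DESeq2 called 2 (1.91% of all genes). With TGFβ, 2 of 9 were lower in iCre (8.37% of all genes called in either direction). With IL-1β, 1 was higher and 2 were lower (16.1%), and with TNFα, 1 was higher and 2 were lower (27.3%). With the replicate block, 7, 8, 6, 7 and 6 of the 9 were called in CTRL and with bFGF, TGFβ, IL-1β and TNFα, and 14.5%, 13.9%, 20.8%, 29.5% and 32.2% of all genes were. The median log2 fold change of the 9 genes between iCre and LacZ was -0.58 in CTRL, -0.47 for bFGF, -0.10 for TGFβ, -0.14 for IL-1β and -0.52 for TNFα, against -0.03 to 0.04 over all genes. With TNFα the share of the 9 genes called was close to that of all genes, so that this count alone says little of the 9.

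In LacZ fibroblasts, TGFβ and IL-1β each lowered *Id1*, *Id2* and *Id4*, and TNFα lowered *Id1*, *Id3* and *Id4*. Comparisons of the 4 ligands share the same 4 CTRL libraries. With bFGF, 1 of 9 genes was called and was higher (11.6% of all genes called). With TGFβ, 5 were lower (36.9%), with IL-1β 5 were lower (20.7%), and with TNFα 1 was higher and 4 were lower (21.3%). In iCre fibroblasts, bFGF gave no call by edgeR (2.42% of all genes), with 2 genes at an unadjusted p under 0.05 and 1 called by DESeq2 (7.93% of all genes). TGFβ gave 3 lower genes in iCre fibroblasts (37.4% of all genes called), IL-1β 2 lower genes (16.3%), and TNFα 1 higher and 3 lower genes (27.0%). For bFGF in LacZ and for TGFβ in iCre the share of the 9 genes was under that of all genes. With the replicate block, 6, 7, 8 and 8 of the 9 genes were called for bFGF, TGFβ, IL-1β and TNFα in LacZ, where 27.3%, 42.0%, 33.5% and 35.5% of all genes were, and 4, 6, 9 and 8 in iCre, where 16.7%, 41.5%, 33.8% and 36.1% were. Whether a ligand's effect differed between iCre and LacZ was tested as an interaction over 16 libraries. For bFGF none of the 9 genes was called by edgeR (0.0% of all genes), none had an unadjusted p under 0.05, and DESeq2 and the block called none (0.0% of all genes by each). For TGFβ none was called by edgeR (4.51% of all genes), DESeq2 (8.68%) or the block (8.04%), with 1 gene at an unadjusted p under 0.05. For IL-1β and for TNFα only *Id1* was called (7.71% and 16.1% of all genes), 1 of 9 and for TNFα under the share of all genes, and the replicate block called 4 and 5 of the 9 (16.9% and 25.1% of all genes).

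**Figure D1:**
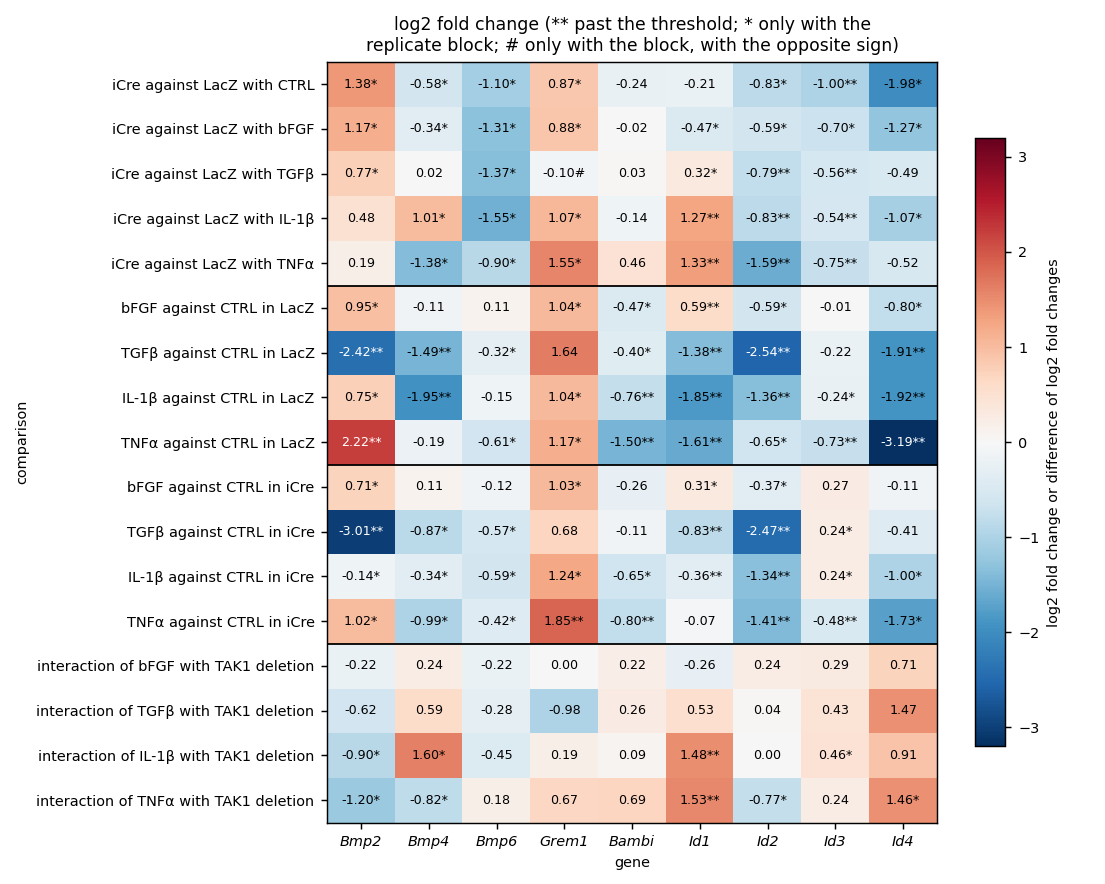
Log2 fold changes of the 9 genes (columns) in 17 comparisons (rows), colored from blue (lower in the first group named) to red (higher). Double asterisks mark an adjusted p of at most 0.05, single asterisks the same only with the replicate block, and the hash sign a call with the block in the opposite direction; *Id2* and *Id3* are blue in each of the 5 comparisons of iCre with LacZ.

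*Id1* (ENSMUSG00000042745, chromosome 2, 152736251 to 152737410, GRCm38), the prototype BMP target, responded less to IL-1β and to TNFα in iCre than in LacZ fibroblasts. In LacZ fibroblasts it was at 28.6, 25, 32.2 and 36.2 CPM in replicates 1 to 4 of CTRL. With IL-1β it was at 6.46, 7.68, 8.97 and 10.6 CPM, and with TNFα at 13.5, 4.82, 10.5 and 11.2 CPM, so that neither range reached that of CTRL. IL-1β thus gave a log2 fold change of -1.85 (standard error, SE, 0.17, adjusted p = 8.65e-05), and TNFα one of -1.61 (SE 0.27, adjusted p = 0.00246). In iCre fibroblasts *Id1* was at 28.6, 28.3, 21.8 and 27.5 CPM in CTRL and at 20.8, 20.1, 21.9 and 19.2 CPM with IL-1β, and these ranges touched through replicate 3 of CTRL. With TNFα it was at 25.5, 19.7, 29.4 and 24.4 CPM, within and around the CTRL values. In iCre the log2 fold change was -0.36 with IL-1β (SE 0.11, adjusted p = 0.0487) and -0.07 with TNFα (SE 0.14, adjusted p = 0.775). The call with IL-1β in iCre was lost without replicate 1 (adjusted p = 0.196), replicate 2 (0.124) or replicate 4 (0.23), and also without the filter on low counts (0.0547) and in a single fit of all 40 libraries (0.245).

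The difference between the responses of *Id1* was itself past the threshold. The interaction was 1.48 on the log2 scale for IL-1β (SE 0.20, adjusted p = 0.000279) and 1.53 for TNFα (SE 0.33, adjusted p = 0.00421). Without 1 replicate number it lay between 1.36 and 1.55 for IL-1β and was called each time. For TNFα it lay between 1.33 and 1.74, and the call was lost without replicate 3 (adjusted p = 0.0871) or replicate 4 (0.0562). Set directly against LacZ, *Id1* was 2.41-fold higher in iCre fibroblasts with IL-1β (log2 1.27, SE 0.15, adjusted p = 0.000395) and 2.51-fold higher with TNFα (log2 1.33, SE 0.27, adjusted p = 0.00529). In both treatments the ranges of iCre and LacZ were apart, and iCre was higher in 4 of 4 same-numbered pairs. The call with TNFα was lost without replicate 3 (adjusted p = 0.0514). The summed endothelial markers moved with *Id1*, from 26.2 CPM in LacZ CTRL to 8.71 with IL-1β and 12.1 with TNFα, and from 15.0 CPM in iCre CTRL to 11.1 and 13.4, and their part in the interaction was not tested.

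The other ligands moved *Id1* in both cell types. With bFGF it was at 46.8, 36.7, 52.1 and 46.2 CPM in LacZ, above every CTRL library, with a log2 fold change of 0.59 (SE 0.14, adjusted p = 0.0237). That call was lost without replicate 1 (adjusted p = 0.124), 3 (0.171) or 4 (0.0788), and in a single fit of all 40 libraries (0.0611). In iCre it was at 32.7, 38.6, 30.6 and 29.2 CPM with bFGF, also above every CTRL library, with a log2 fold change of 0.31 that was past the threshold only with the replicate block (adjusted p = 0.234 without and 0.0238 with it). TGFβ lowered *Id1* to 8.83, 17.6, 11.2 and 8.71 CPM in LacZ (log2 fold change -1.38, SE 0.23, adjusted p = 0.000852). In iCre it was at 11.4, 18.8, 14.3 and 14.6 CPM with TGFβ (log2 fold change -0.83, SE 0.16, adjusted p = 0.00171), and both ranges lay under those of CTRL. The interaction for TGFβ was 0.53 (SE 0.29, adjusted p = 0.433) and passed the threshold only without replicate 2 (0.79, adjusted p = 0.0402). Between iCre and LacZ, *Id1* was called in CTRL neither without nor with the block (log2 -0.21, adjusted p = 0.509 and 0.235), and with the block it was lower in iCre with bFGF (log2 -0.47, adjusted p = 0.00343, and -0.65 with 0.0197 without replicate 2) and higher with TGFβ (log2 0.36, adjusted p = 0.0424). The last of these was 0.16 with GC correction added to the block (adjusted p = 0.596).

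**Figure D2:**
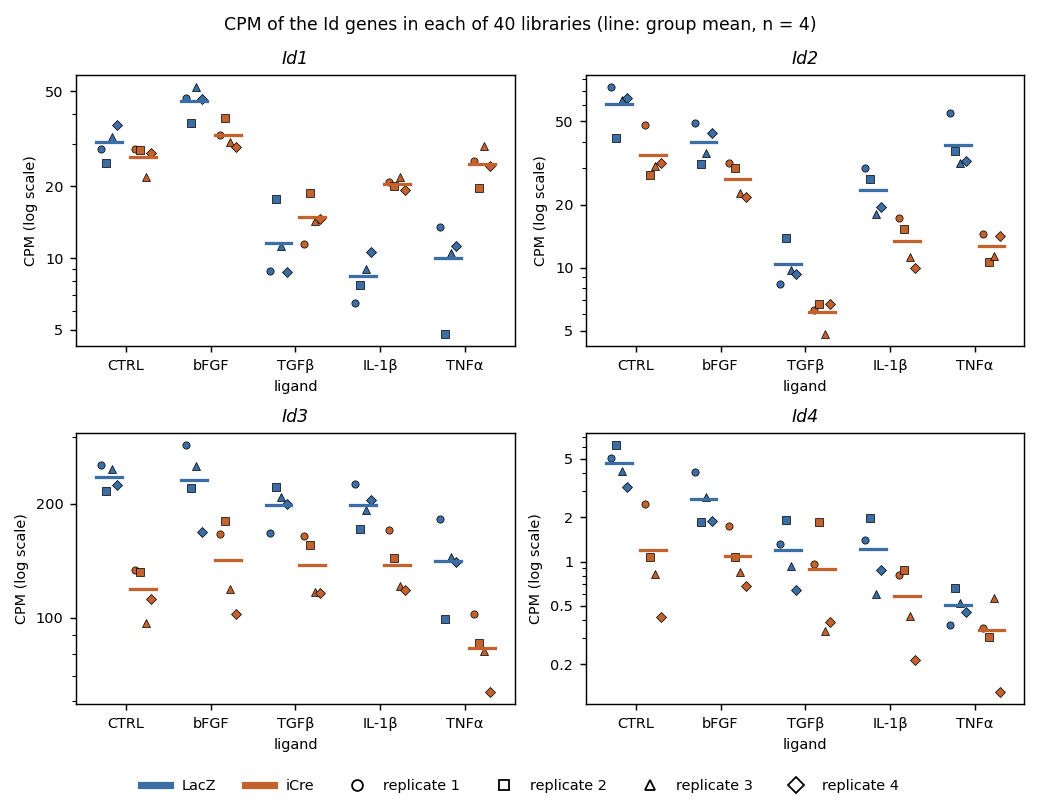
CPM of *Id1*, *Id2*, *Id3* and *Id4* on a log axis in each of the 40 libraries, by ligand, with LacZ in blue, iCre in orange, a marker for each replicate number and a line at the mean of 4. *Id1* with IL-1β and TNFα lies between 4.82 and 13.5 CPM in LacZ and between 19.2 and 29.4 CPM in iCre, whereas iCre lies lower for *Id2* and *Id3*.

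*Id2* (ENSMUSG00000020644, chromosome 12, 25093799 to 25097140) was lower in iCre than in LacZ in all 20 same-numbered pairs. In CTRL it was at 73.1, 41.7, 63.6 and 64.6 CPM in LacZ and at 48.0, 27.6, 30.6 and 31.5 CPM in iCre, and these ranges overlapped through replicate 1 of iCre and replicate 2 of LacZ. Its log2 fold change was -0.83 (SE 0.21, adjusted p = 0.133 without and 7.15e-06 with the block). It also passed the threshold by DESeq2 (0.0132), in the single fit of all 40 libraries (0.0436) and without replicate 2 (log2 -0.88, adjusted p = 0.0208). With bFGF the log2 fold change was -0.59 (adjusted p = 0.367 without and 0.000649 with the block). With TGFβ, the levels of 8.39, 13.9, 9.75 and 9.36 CPM in LacZ lay above the 6.28, 6.70, 4.83 and 6.67 CPM in iCre (log2 fold change -0.79, SE 0.19, adjusted p = 0.0307). This call was lost without replicate 1 (adjusted p = 0.0667), 3 (0.2) or 4 (0.125), and with a correction for GC content (0.207), but not with GC correction and block together. With IL-1β, *Id2* was at 30.0, 26.6, 18.1 and 19.5 CPM in LacZ and at 17.3, 15.3, 11.2 and 9.95 CPM in iCre, again without overlap (log2 fold change -0.83, SE 0.21, adjusted p = 0.024). That call was lost without replicate 3 (adjusted p = 0.0753) or 4 (0.0646) and with the GC correction alone (0.0821).

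Of the 5 treatments, TNFα gave the largest log2 fold change of *Id2* between iCre and LacZ. LacZ libraries were at 54.9, 35.9, 31.7 and 32.5 CPM, and iCre libraries at 14.4, 10.6, 11.4 and 14.2 CPM, a 3.02-fold lower mean in iCre (log2 -1.59, SE 0.19, adjusted p = 0.000432). The call held without any 1 replicate number. In iCre fibroblasts TNFα lowered *Id2* from its CTRL level by 1.41 on the log2 scale (SE 0.19, adjusted p = 0.000623). In LacZ the same ligand gave a log2 fold change of -0.65 (adjusted p = 0.059 without and 7.6e-05 with the block). It also passed the threshold by DESeq2 (0.0295), with GC correction (0.0418) and in the single fit of all 40 libraries (0.0271). Without replicate 1 (-0.77, 0.0263) or replicate 2 (-0.76, 0.0148) it passed as well. The interaction was -0.77 (SE 0.31) with an adjusted p of 0.106, of 0.00477 with the block and of 0.0493 by DESeq2. TGFβ lowered *Id2* by 2.54 on the log2 scale in LacZ (SE 0.21, adjusted p = 1.12e-05) and by 2.47 in iCre (SE 0.19, adjusted p = 5.51e-06), and IL-1β lowered it by 1.36 in LacZ (adjusted p = 0.00152) and by 1.34 in iCre (adjusted p = 0.003). These 4 calls held without any 1 replicate number, and the interactions were 0.04 (SE 0.30) for TGFβ and 0.00 (SE 0.33) for IL-1β. With bFGF, *Id2* had log2 fold changes of -0.59 in LacZ and -0.37 in iCre, past the threshold with the block (adjusted p = 0.000118 and 0.0306) and not without it. The first also passed by DESeq2 (0.0365), with GC correction (0.0449), in the single fit of all 40 libraries (0.0492) and without replicate 2 (-0.65, 0.00611).

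*Id3* (ENSMUSG00000007872, chromosome 4, 136143497 to 136145755) was called between iCre and LacZ without ligand, alone among the 9 genes by edgeR without the block, while DESeq2 called 4 (5.34% of all genes) and a single edgeR fit of all 40 libraries 3 (1.61%). It was at 254, 216, 247 and 224 CPM in LacZ and at 134, 132, 96.7 and 112 CPM in iCre CTRL libraries, 2.0-fold lower in iCre and without overlap (log2 -1.0, SE 0.12, adjusted p = 0.0263). The call was lost without replicate 1 (adjusted p = 0.051), 3 (0.376) or 4 (0.36), with log2 fold changes between -1.09 and -0.88, and the adjusted p with the block was 1.03e-06. *Id3* was lower in iCre in 20 of 20 pairs. Its log2 fold change was -0.56 with TGFβ (SE 0.14, adjusted p = 0.0311), -0.54 with IL-1β (SE 0.14, adjusted p = 0.0234) and -0.75 with TNFα (SE 0.19, adjusted p = 0.0165). Each of these 3 calls was lost without replicate 3 (adjusted p = 0.246, 0.14 and 0.104) and without replicate 4 (0.2, 0.126 and 0.0876), and the direction stayed. With bFGF it was -0.70 (adjusted p = 0.367), and passed with the block (1.29e-05) and in the single fit of all 40 libraries (0.0348). The ranges were apart in CTRL and with TGFβ and IL-1β, and with TNFα they overlapped in replicate 1 of iCre (102 CPM) and replicate 2 of LacZ (99.1 CPM).

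With all replicates and without the block, TNFα was the ligand that changed *Id3*. It lowered *Id3* to 182, 99.1, 145 and 140 CPM in LacZ, under every CTRL library (log2 fold change -0.73, SE 0.16, adjusted p = 0.0102). In iCre, where it was at 102, 85.8, 81.5 and 63.6 CPM with TNFα, the log2 fold change was -0.48 (SE 0.15, adjusted p = 0.044). The call in LacZ was lost without replicate 3 (adjusted p = 0.0775) or 4 (0.0645), and that in iCre without replicate 2 (0.114), 3 (0.08) or 4 (0.116). TGFβ and IL-1β gave log2 fold changes of -0.22 and -0.24 in LacZ and of 0.24 and 0.24 in iCre, and the first passed without replicate 2 (-0.33, adjusted p = 0.0268). With the block, the value for IL-1β in LacZ (adjusted p = 0.0161) and those for TGFβ and IL-1β in iCre (0.0366 and 0.00443) passed the threshold, and so did the interaction for IL-1β (0.46, SE 0.18, adjusted p = 0.161 without and 0.0197 with the block). With GC correction added to the block, the calls in iCre were lost, at 0.01 for TGFβ and 0.02 for IL-1β (adjusted p = 0.961 and 0.875), and so was the interaction, at 0.27 (0.251).

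*Id4* (ENSMUSG00000021379, chromosome 13, 48261228 to 48266026) had the fewest counts of the 9 genes, 4 to 282 in a library. It overlaps the antisense transcript *A330033J07Rik* and *Gm49291*, whose reads cannot be kept apart from its own unless strand was used in counting. In LacZ CTRL it was at 5.09, 6.19, 4.10 and 3.22 CPM, above every library of the other groups except replicate 1 with bFGF. TGFβ lowered it to 1.32, 1.91, 0.935 and 0.644 CPM in LacZ (log2 fold change -1.91, SE 0.34, adjusted p = 0.00135). IL-1β lowered it to 1.39, 1.98, 0.605 and 0.873 CPM (-1.92, SE 0.36, adjusted p = 0.00416), and TNFα to 0.373, 0.664, 0.525 and 0.455 CPM (-3.19, SE 0.28, adjusted p = 5.93e-05). These 3 calls held without any 1 replicate number. With bFGF the log2 fold change was -0.80 (adjusted p = 0.121 without and 0.00515 with the block, and 0.0401 by DESeq2), and -0.52 (0.27) without replicate 2. In iCre CTRL *Id4* was at 2.45, 1.07, 0.817 and 0.417 CPM, under every LacZ CTRL library, yet the log2 fold change of -1.98 (SE 0.46) had an adjusted p of 0.109, of 2.3e-05 with the block, of 0.000983 by DESeq2 and of 0.0379 in the single fit of all 40 libraries. It was lower in iCre in 19 of 20 pairs. With bFGF it also passed with the block (log2 -1.27, adjusted p = 0.363 without and 0.000527 with it) and by DESeq2 (0.0373). With IL-1β it passed with the block (-1.07, adjusted p = 0.178 without and 0.00938 with it), and was at -0.75 (0.0872) with GC correction added. Within iCre fibroblasts the log2 fold change with TNFα was -1.73 (adjusted p = 0.0525). It was not called without any of the 4 replicate numbers, with a value of -1.12 (adjusted p = 0.213) without replicate 1, -1.72 (0.106) without 2, -2.25 (0.077) without 3 and -1.79 (0.0565) without 4. It was past the threshold with RLE normalization (0.0482), other filters on low counts (0.0401 and 0.0492) and all 40 libraries in a single fit (0.00974), with the block (0.00987) and by DESeq2 (0.0109). The block also called IL-1β in iCre (log2 -1.0, adjusted p = 0.00707, and 0.0725 with GC correction added), whose unblocked value was -0.58 without replicate 1 (0.603). The interaction for TNFα was 1.46 (SE 0.66, adjusted p = 0.162), and 0.0484 with the block. Those for TGFβ (1.47) and IL-1β (0.91) passed only with GC correction and block together (1.85 and 1.27, adjusted p = 0.038 and 0.0455).

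*Bmp2* (ENSMUSG00000027358, chromosome 2, 133552159 to 133562885) encodes a ligand known for bone formation and heart development. It fell with TGFβ in both cell types. In LacZ it was at 6.41, 20.4, 10.4 and 9.21 CPM in CTRL and at 1.05, 3.50, 2.59 and 1.33 CPM with TGFβ, 5.34-fold lower (log2 -2.42, SE 0.44, adjusted p = 0.00151). In iCre it was at 18.8, 58.6, 23.9 and 20.4 CPM in CTRL and at 2.41, 5.99, 2.77 and 3.68 CPM with TGFβ (log2 -3.01, SE 0.42, adjusted p = 0.000234). TNFα raised it in LacZ to 33.9, 98.5, 50.7 and 31.4 CPM, above every CTRL library (log2 2.22, SE 0.43, adjusted p = 0.00554), and these 3 calls held without any 1 replicate number. In iCre it was at 20.1, 104, 58.8 and 58.0 CPM with TNFα, which overlapped CTRL (log2 1.02, SE 0.49, adjusted p = 0.157 without and 0.00252 with the block, and 0.0336 without replicate 2).

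Between the viruses, *Bmp2* was higher in iCre in 18 of 20 pairs and was called in no treatment by edgeR without the block. The log2 fold change was 1.38 in CTRL (SE 0.43, adjusted p = 0.2), 1.17 with bFGF (0.507) and 0.77 with TGFβ (0.336), and with the block these had adjusted p-values of 1e-07, 2.34e-08 and 0.0121, the last of which was 0.0504 with GC correction added. Without replicate 2, the differences in CTRL (log2 1.27, adjusted p = 0.00751) and with bFGF (1.49, adjusted p = 0.047) passed the threshold. DESeq2 on all replicates also called the difference in CTRL (adjusted p = 0.0223). With IL-1β and TNFα the values were 0.48 (0.09 without replicate 2) and 0.19, with adjusted p-values of 0.121 and 0.711 with the block. The interactions for IL-1β (-0.90, SE 0.66) and TNFα (-1.20, SE 0.71) passed only with the block (adjusted p = 0.000678 and 0.00247, against 0.498 and 0.301), the first also without replicate 2 (-1.21, adjusted p = 0.0109). Against CTRL, bFGF gave log2 fold changes of 0.95 in LacZ and 0.71 in iCre, and IL-1β 0.75 in LacZ and -0.14 in iCre. All 4 passed only with the block (adjusted p = 0.000703, 0.000375, 2.67e-07 and 0.0314), and that of IL-1β in LacZ also without replicate 2 (0.90, adjusted p = 0.00433), where that of bFGF in LacZ was 0.57 (0.153).

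*Bmp4* (ENSMUSG00000021835, chromosome 14, 46383520 to 46390669), a close relative of *Bmp2* and likewise bound by Gremlin 1, fell with TGFβ and with IL-1β in LacZ fibroblasts. It overlaps *Gm15217* and *Gm15222* on the opposite strand, so that its counts are uncertain to that extent. It was at 76.7, 14.4, 36.5 and 28.2 CPM in CTRL, at 21.3, 6.16, 15.6 and 11.8 CPM with TGFβ and at 19.0, 5.43, 8.86 and 6.88 CPM with IL-1β, lower in 4 of 4 pairs although the ranges overlapped across replicate numbers. TGFβ gave a log2 fold change of -1.49 (SE 0.50, adjusted p = 0.0378), and IL-1β one of -1.95 (SE 0.52, adjusted p = 0.0242). The call with TGFβ was lost without replicate 1 (adjusted p = 0.0553), 3 (0.107) or 4 (0.109), and that with IL-1β without replicate 3 (0.125) or 4 (0.101). With the block the adjusted p-values were 6.24e-06 and 4.18e-16.

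In iCre fibroblasts *Bmp4* was at 37.4, 15.7, 28.6 and 23.4 CPM in CTRL and was called against CTRL only with the block or without 1 replicate number. Its log2 fold change was -0.87 with TGFβ (adjusted p = 0.127 without and 7.5e-05 with the block), -0.34 with IL-1β (0.676 and 1.18e-05, and between -0.66 and -0.12 without 1 replicate number) and -0.99 with TNFα (0.297 and 0.00371). The block put it at -0.99, -0.49 and -1.52 in this order. It passed with TGFβ without replicate 1 (-1.09, adjusted p = 0.0458) or 2 (-0.78, 0.0333), and with TNFα without replicate 1 (-1.96, adjusted p = 0.0071). The direction of the difference between iCre and LacZ turned between the inflammatory ligands. With IL-1β, *Bmp4* was at 39.2, 12.3, 22.5 and 7.95 CPM in iCre, higher than LacZ in 4 of 4 pairs (log2 1.01, SE 0.51, adjusted p = 0.224 without and 3.55e-05 with the block). With TNFα it was at 34.5, 3.0, 8.58 and 5.42 CPM in iCre and at 58.9, 15.8, 34.2 and 27.8 CPM in LacZ, lower in 4 of 4 pairs. The log2 fold change was -1.38 (SE 0.69, adjusted p = 0.18), -1.84 with the block (0.00072) and -2.19 without replicate 1 (0.00594). The interaction was 1.60 for IL-1β and -0.82 for TNFα, and -1.38 for TNFα with the block, each past the threshold only with the block (adjusted p = 0.00126 and 0.00794, against 0.255 and 0.622), and the second also without replicate 1 (-1.97, adjusted p = 0.0442). In CTRL and with bFGF the log2 fold changes of iCre against LacZ were -0.58 and -0.34, with adjusted p-values of 0.0395 and 0.0119 with the block, and that in CTRL was -0.22 without replicate 1 (adjusted p = 0.822).

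*Bmp6* (ENSMUSG00000039004, chromosome 13, 38345107 to 38500302), a ligand also known for its part in iron balance, was lower in iCre in 20 of 20 pairs. It overlaps *Txndc5* and *4930579J19Rik* on the opposite strand. With IL-1β it was at 45.3, 26.0, 53.4 and 64.8 CPM in LacZ and at 28.3, 3.75, 15.4 and 17.8 CPM in iCre, and with TGFβ at 45.5, 21, 51.0 and 50 CPM and at 29.1, 7.18, 15.8 and 14.2 CPM. Replicate 2 of LacZ lay within the range of iCre each time, and the rest of LacZ lay above it. The log2 fold change was -1.55 with IL-1β (SE 0.49, adjusted p = 0.0553) and -1.37 with TGFβ (SE 0.39, adjusted p = 0.0596). Both were past the threshold by DESeq2 (adjusted p = 0.00636 and 0.00463) and without the filter on low counts (0.0448 and 0.0485), and the first also with GC correction (0.0421). It was -1.10 in CTRL (adjusted p = 0.32), -1.31 with bFGF (0.495) and -0.90 with TNFα (0.298, and -1.45 with 0.0771 without replicate 1). The block called all 5, with adjusted p-values of 6.03e-07 in CTRL, 1.65e-09 for bFGF, 4.38e-07 for TGFβ, 1.13e-06 for IL-1β and 0.00241 for TNFα. Without replicate 2, CTRL (log2 -1.06, adjusted p = 0.00952), bFGF (-1.31, 0.0422), TGFβ (-1.37, 0.00126) and IL-1β (-1.40, 0.000968) passed the threshold, and TGFβ also without replicate 1 (-1.75, 0.0406). No ligand gave a call against CTRL without the block, and with it *Bmp6* was lower with TGFβ (log2 -0.27 in LacZ and -0.55 in iCre) and TNFα (-0.63 and -0.60) in both cell types, and with IL-1β in iCre (-0.68). In LacZ, TGFβ (-0.37, adjusted p = 0.00594) and TNFα (-0.59, 0.0027) also passed without replicate 2. The interaction for IL-1β, -0.45, was past the threshold only with GC correction and block together (-0.83, adjusted p = 0.0426).

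*Grem1* (ENSMUSG00000074934, chromosome 2, 113746164 to 113758646), the secreted BMP antagonist, was higher in iCre in 19 of 20 pairs, with replicate 2 the highest in each group. In CTRL it was at 122, 217, 85.3 and 74.9 CPM in LacZ and at 123, 400, 185 and 208 CPM in iCre (log2 0.87, SE 0.40, adjusted p = 0.364 without and 0.000926 with the block). With TNFα it was at 124, 735, 136 and 125 CPM in LacZ and at 409, 1320, 762 and 745 CPM in iCre, where 3 of 4 iCre libraries were above every LacZ library (log2 1.55, SE 0.62, adjusted p = 0.0966 without and 0.000685 with the block). Without replicate 2 this difference was 2.32 (adjusted p = 0.000152). With IL-1β the log2 fold change was 1.07 (adjusted p = 0.152 without and 2.09e-07 with the block, and 1.43 with adjusted p = 0.00244 without replicate 2). With bFGF it was 0.88 (0.437 without and 1.31e-05 with the block, and 1.29 with adjusted p = 0.014 without replicate 2).

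With TGFβ the direction of the difference in *Grem1* rested on replicate 2. There it was at 54.0, 1330, 80.6 and 67.0 CPM in LacZ and at 93.0, 1020, 143 and 199 CPM in iCre, so that iCre was higher in every pair but that of replicate 2. The log2 fold change was -0.10 (SE 1.10, adjusted p = 1.0), 1.04 without replicate 2 (adjusted p = 0.00699) and 0.67 with the block (adjusted p = 0.0121). Against CTRL, *Grem1* was called with TNFα in iCre (log2 1.85, SE 0.41, adjusted p = 0.00769), where every library with TNFα, at 409 to 1320 CPM, was above every CTRL library. That call was lost without replicate 3 (adjusted p = 0.0599) or 4 (0.0544) and in a single fit of all 40 libraries (0.0822). With bFGF, IL-1β and TNFα in LacZ the log2 fold changes were 1.04, 1.04 and 1.17, and with bFGF and IL-1β in iCre 1.03 and 1.24. These 5 passed with the block and not without it. The block gave 1.02, 0.91, 0.80, 1.14 and 1.25 (adjusted p = 1.59e-05, 2.25e-07, 0.000814, 9.41e-06 and 1.85e-34). Of these 5, DESeq2 also called bFGF and IL-1β in iCre (0.0291 and 0.0125), the latter also passing without the filter on low counts (0.049). Without replicate 2, TNFα in LacZ was at 0.44 and was not called (adjusted p = 0.0639), while the others passed, with log2 fold changes of 0.94 (adjusted p = 0.00468), 0.76 (0.018), 1.37 (0.00303) and 1.33 (0.00485). Of TGFβ against CTRL the direction likewise rested on replicate 2. *Grem1* was lower with TGFβ in 3 of 4 pairs in LacZ and in 3 of 4 in iCre, and the log2 fold changes of 1.64 in LacZ and 0.68 in iCre turned to -0.48 and -0.23 without replicate 2 (adjusted p = 0.0565 and 0.497), and were 0.24 and 0.13 with the block (0.746 and 0.696). The interaction for TGFβ was -0.98, and 0.23 without replicate 2 (adjusted p = 0.818 and 0.855). That for TNFα was 0.67 (SE 0.81, adjusted p = 0.656) and passed without replicate 2 (1.43, adjusted p = 0.014) and with GC correction and block together (1.20, 0.038).

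**Figure D3:**
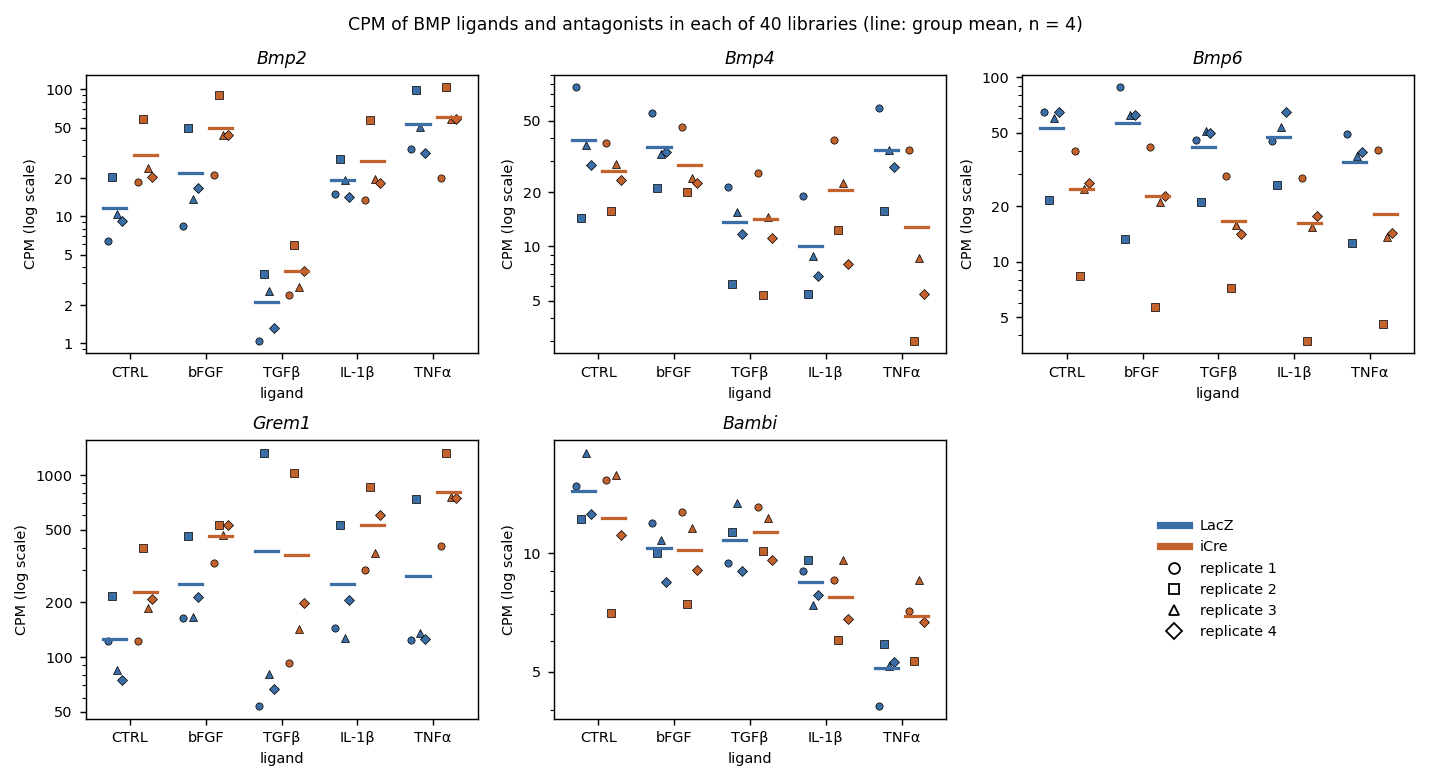
CPM of *Bmp2*, *Bmp4*, *Bmp6*, *Grem1* and *Bambi* on log axes in each of the 40 libraries, by ligand, with LacZ in blue, iCre in orange, a marker for each replicate number and a line at the mean of 4. Squares, which stand for replicate 2, are highest for *Bmp2* and *Grem1* and lowest for *Bmp6* in 10 of 10 groups.

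*Bambi* (ENSMUSG00000024232), the pseudoreceptor, was lowered by inflammatory ligands. In LacZ it was at 14.8, 12.2, 18 and 12.6 CPM in CTRL, at 9.0, 9.61, 7.37 and 7.83 CPM with IL-1β and at 4.10, 5.87, 5.17 and 5.30 CPM with TNFα, without overlap. IL-1β lowered it by 0.76 on the log2 scale (SE 0.15, adjusted p = 0.00668), and TNFα by 1.5 (SE 0.16, adjusted p = 0.000235). The first of these calls was lost without replicate 3 (adjusted p = 0.0578), and the second held without any 1 replicate number. In iCre it was at 15.3, 7.04, 15.8 and 11.1 CPM in CTRL and at 7.12, 5.33, 8.54 and 6.68 CPM with TNFα, lower in 4 of 4 pairs (log2 -0.80, SE 0.25, adjusted p = 0.0428). That call was lost without replicate 1 (adjusted p = 0.148), 3 (0.128) or 4 (0.129) and with the GC correction alone (0.0799). With IL-1β in iCre the log2 fold change was -0.65 (adjusted p = 0.119 without and 4.91e-07 with the block, and 0.0143 without replicate 2). It also passed by DESeq2 (0.0454) and in the single fit of all 40 libraries (0.0165). In LacZ, bFGF (-0.47) and TGFβ (-0.40) passed with the block and not without it (adjusted p = 0.0062 and 0.0175 with it). The first also passed by DESeq2 (0.0351), with GC correction (0.0493) and without replicate 2 (0.0486). Between iCre and LacZ *Bambi* was lower in 10 of 20 pairs and was called in no treatment by edgeR with or without the block. It was called with TNFα without replicate 2 (log2 0.62, adjusted p = 0.0363), with GC correction (0.68, 0.0287) and with GC correction and block together (0.67, 0.024), and the interaction for TNFα with the latter (0.85, 0.023). On all replicates without block or GC correction it had log2 fold changes from -0.24 to 0.46 and SEs from 0.16 to 0.24.

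**Figure D4:**
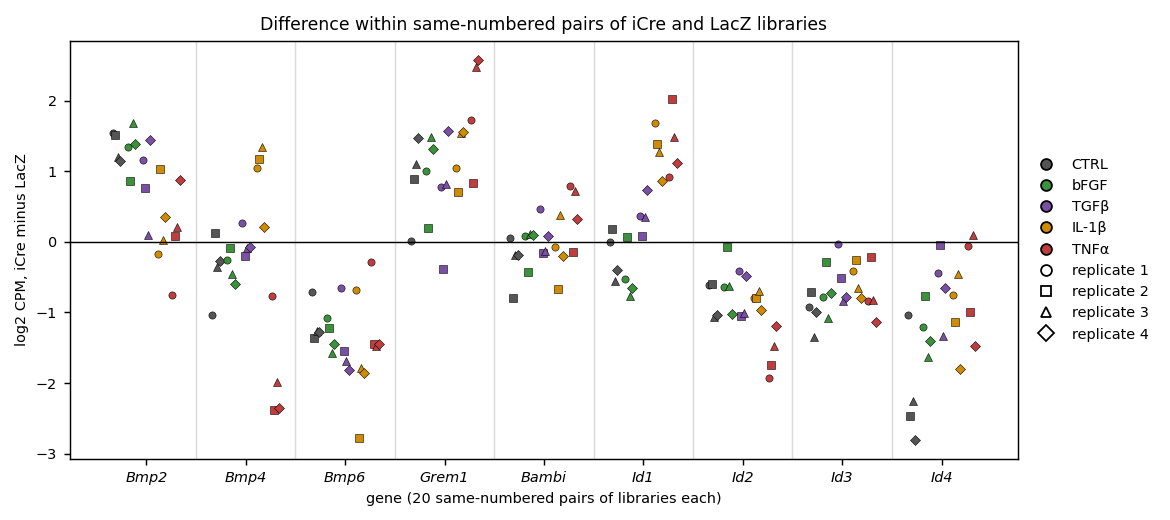
Log2 CPM in iCre minus LacZ for each of 20 same-numbered pairs of libraries per gene, with 1 color per ligand and 1 marker per replicate number. All 20 points lie under 0 for *Bmp6*, *Id2* and *Id3*, 19 of 20 lie above 0 for *Grem1*, and *Id1* turns from near 0 in CTRL to above 0 with IL-1β and TNFα.

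Levels were set against each other only per kilobase of exon (RPKM). In LacZ CTRL the mean was 131 ± 10.0 RPKM for *Id3* (SD, n = 4), ahead of 30.1 ± 15.6 for *Grem1*, 26.3 ± 4.15 for *Id1*, 24.9 ± 5.50 for *Id2* and 17.3 ± 11.9 for *Bmp4*. *Bmp6* followed at 13.5 ± 5.37 RPKM, *Bmp2* at 3.26 ± 1.72, *Bambi* at 2.84 ± 0.517 and *Id4* at 1.21 ± 0.332 (SD, n = 4 each). In iCre with TNFα, *Grem1* was at 195 ± 90.9 RPKM and *Id3* at 46.4 ± 8.72 (SD, n = 4), so that *Grem1* stood ahead of *Id3* on this scale. In order of group means in CPM, *Id1* ran from 45.5 ± 6.44 in LacZ with bFGF to 8.43 ± 1.77 in LacZ with IL-1β, and among neighbors in that order only iCre with IL-1β and iCre with TGFβ did not overlap. *Id2* ran from 60.8 ± 13.4 in LacZ CTRL to 6.12 ± 0.88 CPM in iCre with TGFβ (SD, n = 4), and 2 pairs of neighbors did not overlap. For *Id3*, *Id4*, *Bmp4*, *Bmp6*, *Grem1* and *Bambi* every group overlapped the next in order, and for *Bmp2* every group but LacZ CTRL, at 11.6 ± 6.11 CPM, which stood apart from iCre with TGFβ, at 3.71 ± 1.61 (SD, n = 4).

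Receptors of the pathway also differed between iCre and LacZ. Of 12 BMP receptors and co-receptors, 2 were lower in iCre with TGFβ (8.37% of all genes called in either direction), 3 were lower and 1 was higher with IL-1β (16.1%), and 5 were lower and 2 were higher with TNFα (27.3%). The median log2 fold change over the list was -0.14, -0.33 and -0.34, against 0.00, 0.04 and 0.00 over all genes. *Bmpr2*, the type II BMP receptor, was at 497 ± 102 CPM in LacZ and at 213 ± 11.4 CPM in iCre with IL-1β (SD, n = 4; log2 -1.24, adjusted p = 0.000462), and its interaction was -1.37 (adjusted p = 0.000314). *Bmpr1a*, a type I receptor, was lower in iCre with TGFβ, IL-1β and TNFα alike, by log2 fold changes of -0.80, -0.74 and -0.77 (adjusted p = 0.00063, 0.000993 and 0.000514). The co-receptor *Rgmb* was higher in iCre with TNFα, at 246 ± 90.6 against 71.3 ± 8.40 CPM (SD, n = 4; log2 1.81, adjusted p = 0.000499). In LacZ fibroblasts TGFβ gave 6 higher and 3 lower receptors (36.9% of all genes called) and TNFα 4 higher and 1 lower (21.3%), while bFGF gave 1 higher and IL-1β 2 higher, shares under those of all genes (11.6% and 20.7%). With the block, 4, 5, 4, 9 and 8 receptors were called between iCre and LacZ in CTRL and with bFGF, TGFβ, IL-1β and TNFα, where 14.5%, 13.9%, 20.8%, 29.5% and 32.2% of all genes were. In LacZ it called 4, 11, 8 and 8 for bFGF, TGFβ, IL-1β and TNFα, where 27.3%, 42.0%, 33.5% and 35.5% of all genes were.

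Other antagonists and modulators also responded to the ligands. Of 17 tested among 19 listed, bFGF raised 1 and lowered 2 in LacZ fibroblasts, TGFβ raised 7 and lowered 6, IL-1β raised 6 and lowered 2, and TNFα raised 2 and lowered 4 (11.6%, 36.9%, 20.7% and 21.3% of all genes called). The median log2 fold change was -0.09, 0.54, 0.22 and -0.14 (-0.03, -0.17, -0.10 and -0.08 over all genes), and the block called 8, 15, 14 and 11 (27.3%, 42.0%, 33.5% and 35.5% of all genes). *Fstl3*, a binder of activins, rose from 26.5 ± 6.30 to 346 ± 73.0 CPM with TGFβ in LacZ (SD, n = 4; log2 3.72, adjusted p = 2.72e-06). Between iCre and LacZ, 1 was lower with TGFβ, 3 were lower with IL-1β, and 4 were lower and 1 was higher with TNFα, close to the shares of all genes (8.37%, 16.1% and 27.3%), and the block called 8, 9 and 9 (20.8%, 29.5% and 32.2%). *Nog*, which encodes noggin, was at 1.02 ± 0.316 CPM in LacZ against 0.286 ± 0.209 CPM in iCre with IL-1β (SD, n = 4; log2 -1.87, adjusted p = 0.0279).

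Of the other BMP and GDF ligands, 11 of 12 were tested, and few were called. TGFβ raised 1 and lowered 2 in LacZ, a share under that of all genes (36.9%). *Bmp3* fell by 3.82 on the log2 scale (adjusted p = 8.93e-05) and *Gdf7* by 2.12 (adjusted p = 0.0252), while *Gdf6* rose from 52.6 ± 34.6 to 253 ± 145 CPM (SD, n = 4; log2 2.28, adjusted p = 0.00918). In LacZ bFGF lowered 1, also under the share of all genes (11.6%), and IL-1β (20.7%) and TNFα (21.3%) gave no call by edgeR, with 0 and 2 at an unadjusted p under 0.05 and 0 and 0 called by DESeq2. The block called 3, 3, 2 and 3 for bFGF, TGFβ, IL-1β and TNFα (27.3%, 42.0%, 33.5% and 35.5%). The median log2 fold change of the list was -0.20, -1.37, -0.48 and 0.22 (-0.03, -0.17, -0.10 and -0.08 over all genes). Between iCre and LacZ the only call was *Bmp3*, lower in iCre with TNFα (log2 -4.07, SE 1.26, adjusted p = 0.0374), where 27.3% of all genes were called, and which DESeq2 did not call. With TGFβ and IL-1β none was called by edgeR (8.37% and 16.1%), with 1 and 2 at an unadjusted p under 0.05 and 1 and 2 called by DESeq2, and the block called 1, 2 and 3 with TGFβ, IL-1β and TNFα (20.8%, 29.5% and 32.2%). The median of the list was 0.86, 0.52 and -1.19 with TGFβ, IL-1β and TNFα (0.00, 0.04 and 0.00 over all genes).

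Among 15 SMADs and other BMP targets, bFGF lowered 1 in LacZ, TGFβ raised 6 and lowered 3, IL-1β raised 2 and lowered 3, and TNFα raised 1 and lowered 3 (11.6%, 36.9%, 20.7% and 21.3% of all genes called), so that the share with TNFα was near the background and that with bFGF under it. The median of the list was -0.03, 0.35, -0.01 and -0.22 (-0.03, -0.17, -0.10 and -0.08 over all genes), and the block called 10, 11, 7 and 10 (27.3%, 42.0%, 33.5% and 35.5% of all genes). *Smad9*, whose product carries BMP signals, was lower with bFGF (log2 -1.15, adjusted p = 0.0126), TGFβ (-1.84, adjusted p = 0.000132), IL-1β (-1.71, adjusted p = 0.000848) and TNFα (-1.48, adjusted p = 0.00232) in LacZ. Between iCre and LacZ, TGFβ came with 1 lower gene of the list, IL-1β with 2 higher and 1 lower, and TNFα with 3 higher and 2 lower (8.37%, 16.1% and 27.3% of all genes called), with medians of -0.14, -0.03 and 0.00 (0.00, 0.04 and 0.00 over all genes), and the block called 4, 9 and 8 (20.8%, 29.5% and 32.2%). *Smad6*, an inhibitory SMAD, had the smallest adjusted p of the 5 with TNFα and was lower in iCre (16.7 ± 5.84 against 39.0 ± 16.6 CPM, SD, n = 4; log2 -1.21, adjusted p = 0.0216).

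Of 10 E proteins and other helix-loop-helix partners of Id proteins, 1 was higher in iCre with TGFβ, 3 were higher with IL-1β and 3 were higher with TNFα, and none was lower (8.37%, 16.1% and 27.3% of all genes called), a share near the background with TGFβ and TNFα. The median of the list was 0.04, 0.35 and 0.36 (0.00, 0.04 and 0.00 over all genes). The block called 5, 5 and 7 of the 10 (20.8%, 29.5% and 32.2% of all genes), of which 2, 1 and 1 were lower. *Tcf3*, which encodes the E proteins E12 and E47, was higher in iCre with TGFβ (log2 0.43, adjusted p = 0.0258), IL-1β (0.61, adjusted p = 0.000724) and TNFα (0.82, adjusted p = 0.000491). In LacZ, bFGF raised 3, TGFβ raised 2 and lowered 1, IL-1β lowered 3 and TNFα lowered 2 (11.6%, 36.9%, 20.7% and 21.3% of all genes called), shares under the background with TGFβ and TNFα, with medians of 0.14, -0.25, -0.52 and -0.39 (-0.03, -0.17, -0.10 and -0.08 over all genes), and the block called 6, 6, 5 and 7 (27.3%, 42.0%, 33.5% and 35.5%). *Hes1*, a helix-loop-helix repressor, had interactions of 2.58 for IL-1β (adjusted p = 0.00116) and 2.97 for TNFα (adjusted p = 0.000715).

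In CTRL and with bFGF, edgeR called no gene of these 5 lists between iCre and LacZ (0.0754% and 0.0% of all genes called). At an unadjusted p under 0.05 were 0 and 0 of the other ligands, 2 and 2 receptors, 4 and 1 modulators, 3 and 1 SMADs and targets, and 2 and 2 helix-loop-helix partners, and DESeq2 called 1 of the partners in CTRL (5.34% of all genes) and none of any list with bFGF (1.91%). Beside the receptors given above, the block called 1 and 2 other ligands, 9 and 6 modulators, 5 and 4 SMADs and targets, and 3 and 2 partners (14.5% and 13.9%).

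Within iCre fibroblasts, TGFβ gave the most calls of the 4 ligands in each list, as over all genes. It raised 1 and lowered 1 of the other ligands, raised 4 and lowered 4 receptors, raised 6 and lowered 5 modulators, raised 4 and lowered 3 SMADs and targets, and raised 2 and lowered 2 partners (37.4% of all genes called). TNFα raised 1 and lowered 3 receptors, raised 2 and lowered 5 modulators, raised 1 and lowered 3 SMADs and targets, and raised 2 partners (27.0%), and IL-1β lowered 2 receptors, raised 2 and lowered 3 modulators, and raised 1 and lowered 1 of the SMADs and targets (16.3%). With bFGF, 1 modulator was lower and 1 partner was higher (2.42%), namely *Chrdl1*, a relative of chordin (log2 -3.28, adjusted p = 0.0172), and *Hes1* (log2 1.85, adjusted p = 0.0201). The shares of the other ligands with TGFβ, of the SMADs and targets with IL-1β and TNFα, and of the partners with TNFα were under those of all genes. Where edgeR called none, the genes at an unadjusted p under 0.05 were 1, 0 and 1 of the other ligands for bFGF, IL-1β and TNFα (0, 0 and 1 by DESeq2), 2 receptors and 4 SMADs and targets for bFGF (1 and 2 by DESeq2), and 0 partners for IL-1β (0 by DESeq2). In the order of other ligands, receptors, modulators, SMADs and targets, and partners, the block called 3, 4, 8, 7 and 4 for bFGF (16.7% of all genes), 3, 10, 12, 9 and 5 for TGFβ (41.5%), 3, 6, 14, 8 and 4 for IL-1β (33.8%) and 4, 6, 10, 9 and 5 for TNFα (36.1%).

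As interactions, receptors and helix-loop-helix partners were called for IL-1β and TNFα, and other ligands for none. For bFGF no gene of the 5 lists was called by edgeR, DESeq2 or the block (0.0% of all genes by each) or had an unadjusted p under 0.05. For TGFβ, 2 receptors and 1 gene of the SMADs and targets had negative interactions (4.51% of all genes called), and the block called 3 and 2 of these, 1 modulator and 2 partners (8.04%). For IL-1β, 2 receptors and 1 target had negative and 2 partners positive interactions (7.71%), and the block called 1, 6, 3, 3 and 5 in the order above (16.9%). For TNFα, 4 receptors, 1 modulator and 2 SMADs had negative and 1 receptor and 2 partners positive interactions (16.1%), and the block called 2, 8, 3, 5 and 2 (25.1%). The shares of the SMADs and targets for IL-1β and TNFα and of the modulators for TNFα were under those of all genes. The interactions of *Bmpr1a* were -0.82 for TGFβ (adjusted p = 0.00166), -0.76 for IL-1β (0.00189) and -0.79 for TNFα (0.000618). Where edgeR called none, the genes at an unadjusted p under 0.05 were 0, 0 and 1 of the other ligands for TGFβ, IL-1β and TNFα (none by DESeq2), 1 and 3 modulators for TGFβ and IL-1β (0 and 1 by DESeq2), and 2 partners for TGFβ (1 by DESeq2).

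The genes most like 5 of the 9 in pattern were found by Pearson's r of log2 CPM over the 40 libraries, which share replicate numbers and treatments. The search took in the 12291 protein-coding genes, other than the 9, whose mean level reached 1 CPM. *Id1* was most like *Cdc25b* (r = 0.84) and *Metrn* (0.82), and *Id3* most like *Sgcb* (0.82) and *Itga1* (0.81). *Bmp4* was most like *Akap12* (0.87) and *Ablim1* (0.85), *Grem1* most like *Aig1* (0.88) and *Net1* (0.84), and *Bambi* most like *Scrn3* (0.81) and *St3gal5* (0.80). Over the 10 group means, *Metrn* was first for *Id1* (r = 0.95), whereas *Aig1* ranked 187 for *Grem1* (r = 0.83). Among the 9 genes themselves, *Grem1* ran against *Bmp6* (r = -0.75) and with *Bmp2* (0.58) over the 40 libraries. Replicate 2 was the highest for *Grem1* and *Bmp2* and the lowest for *Bmp6* in each group, and its part in these values was not tested.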

How the data were processed

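Poly-A RNA of 40 libraries of mouse cardiac fibroblasts was sequenced. Per the labels and the study's methods, the authors aligned single-end reads to GRCm38 (mm10) with STAR and counted reads per gene with HTSeq 0.10.0, after quality checks with FastQC (0.10.1 per the labels, another version per the methods), and deposited raw counts for 55414 identifiers. The methods name a stranded library kit and the labels another one, and the strand setting and annotation release are not given in the sources used here. The 9 genes and all lists were chosen with earlier results of these data known. Of the lists, the receptors, ligands, SMADs, modulators and helix-loop-helix partners named in the text are among those past the threshold with the smallest adjusted p, at most 4 per list and comparison. The values of one listed gene are not reported here. The 2 protein-coding genes most like *Id1*, *Id3*, *Bmp4*, *Grem1* and *Bambi* in pattern were named as well.

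Genes with at least 10 counts over all libraries were tested by edgeR 4.0.16 (R 4.3.3) with the quasi-likelihood test and TMM normalization, on 8 libraries per pair of groups or 16 per interaction, with Benjamini-Hochberg adjustment and a threshold of 0.05. The study used DESeq2, which served here (1.42.0) as an alternative. CPM were computed with TMM over all 40 libraries, and log2 CPM with a prior count of 2. GC content was corrected with a spline of 4 degrees of freedom. Total counts of 25360947 to 66160732 per library left at least 121 counts of each of the 9 genes in every library, except for *Id4* (as few as 4) and *Bmp2* (as few as 35), whose low values carry more counting error.

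Replicate numbers came from the labels, which do not say whether libraries with the same number came from the same animal. Over 13090 genes, deviations from the group means correlated between same-numbered libraries with r of at least 0.286 in every pair and comparison, against means of -0.204 to -0.134 between other numbers. The replicate number was therefore used as a block in an alternative fit. Since the sources name biological replicates without tying a library to an animal, p-values measure the spread between these libraries. Further alternatives were size-factor (RLE) normalization, other filters on low counts, leaving out each replicate number, GC correction, a single fit of all 40 libraries and CPM without TMM. The scripts were tested on simulated counts.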

Additional observations from a re-analysis of the deposited data

Results flagged for a closer look

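Of 90 groups of 4 CPM values (9 genes in 10 groups), 9 held a library whose gap to the nearest of the others, relative to the range of the group, was above Dixon's 95% critical value for 4 samples. Chance gives about 1 in 20 for independent groups. These groups share replicate numbers and are not independent, so that the count is a description only. In 7 of the 9 the library was replicate 2. It was the highest for *Grem1* in LacZ with bFGF (464 CPM), TGFβ (1330 CPM) and TNFα (735 CPM) and in iCre with TGFβ (1020 CPM), the highest for *Bmp2* in iCre in CTRL (58.6 CPM) and with IL-1β (57.6 CPM), and the lowest for *Bmp6* in LacZ in CTRL (21.5 CPM). The remaining cases were replicate 1 for *Bmp4* in iCre with bFGF, the highest at 46.3 CPM, and replicate 3 for *Id1* in iCre in CTRL, the lowest at 21.8 CPM. Summed markers of leukocytes, of pericytes and smooth muscle, and of cardiomyocytes were lowest in replicate 2 in 10 of 10 groups, and their part in these values was not tested.

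The response of *Id1* differed between iCre and LacZ by a test of the difference itself. The interaction was 1.48 on the log2 scale for IL-1β (adjusted p = 0.000279) and 1.53 for TNFα (adjusted p = 0.00421) by edgeR's quasi-likelihood test.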

How the results depend on the processing

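The number of the 9 genes called moved with the replicate block in most comparisons. For iCre against LacZ, calls went from 1 to 7 in CTRL, from 0 to 8 with bFGF, from 2 to 6 with TGFβ, from 3 to 7 with IL-1β and from 3 to 6 with TNFα. Against CTRL in LacZ they went from 1 to 6 for bFGF, from 5 to 8 for IL-1β and from 5 to 8 for TNFα, and in iCre from 0 to 4 for bFGF, from 3 to 6 for TGFβ, from 2 to 9 for IL-1β and from 4 to 8 for TNFα. For the interactions they went from 1 to 4 for IL-1β and from 1 to 5 for TNFα. With GC correction and the replicate block together the counts were 7, 8, 4, 6 and 7 for iCre against LacZ in the same order, 6, 8 and 8 for bFGF, IL-1β and TNFα in LacZ, 4, 5, 7 and 8 for the 4 ligands in iCre, and 1, 5 and 7 for the interactions of TGFβ, IL-1β and TNFα. GC correction alone gave 1 call for iCre against LacZ with TGFβ and 3 for bFGF in LacZ. DESeq2 gave 4 calls in CTRL and 2 with bFGF for iCre against LacZ, 4 for bFGF in LacZ, 1 for bFGF and 4 for IL-1β in iCre, and 2 for the interaction of TNFα. The single fit of all 40 libraries gave 3 calls in CTRL and 1 with bFGF for iCre against LacZ.

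Leaving out 1 replicate number gave 0 to 4 calls for iCre against LacZ in CTRL, with bFGF and with TGFβ, and 1 to 5 with IL-1β and with TNFα. Against CTRL in LacZ it gave 0 to 4 for bFGF, 4 to 7 for TGFβ, 3 to 7 for IL-1β and 4 to 7 for TNFα, and in iCre 0 to 1 for bFGF, 3 to 4 for TGFβ, 1 to 3 for IL-1β and 1 to 4 for TNFα. For the interactions it gave 0 to 1 for TGFβ, 1 to 2 for IL-1β and 0 to 2 for TNFα. The higher ends came without replicate 2, and those for TGFβ in iCre, TNFα in iCre and the interaction of TNFα also without replicate 1. The count for the interaction of bFGF was 0 under every alternative.

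Of the 153 fold changes of the 9 genes in 17 comparisons, 118 were called in at least 1 fit or were at least 0.3 in size on the log2 scale, and 5 of these turned in direction. The log2 fold change of *Grem1* in iCre against LacZ with TGFβ, -0.10 on all libraries, was 0.67 with the replicate block, 0.12 with GC correction, 0.88 with both and between -0.24 and 1.04 without 1 replicate number, the latter without replicate 2. Without 1 replicate number, *Grem1* with TGFβ against CTRL lay between -0.48 and 2.0 in LacZ and between -0.23 and 0.85 in iCre (1.64 and 0.68 on all libraries), and its interaction for TGFβ between -1.24 and 0.23 (-0.98 on all), each turned without replicate 2. *Id4* with TGFβ against CTRL in iCre lay between -1.10 and 0.17 (-0.41 on all), turned without replicate 1. Of the other 35 values, 19 between -0.22 and 0.24 had another sign in at least 1 fit. Without TMM, 4 of 90 group means moved by more than 1 SD, namely *Bambi* (9.36 CPM) and *Id2* (5.10 CPM) in iCre with TGFβ and *Id3* in LacZ in CTRL (258 CPM) and with TGFβ (167 CPM). The causes of these shifts were not tested. With 4 libraries per group, the spread between replicates limits the unblocked test for *Bmp2*, *Bmp4*, *Bmp6* and *Grem1*. *Id4* and *Bmp2* had as few as 4 and 35 counts in a library, and the part of depth in their results was not tested.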
